A study of Mus musculus with 6 samples.

Results

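The expression of 49 genes for the mitotic spindle, the kinetochore and cytokinesis was examined in endothelial cells (ECs) from metastatic mouse lungs. The genes were taken by name for their role in cell division, with earlier results of these data known. All 49 were found among the 18194 genes that the arrays measure. They were grouped by role as 9 spindle motors and midzone proteins, 13 centromere and kinetochore proteins, 7 proteins of the spindle checkpoint and anaphase onset, 8 mitotic kinases and chromosomal passenger proteins, 3 spindle assembly factors, 6 condensin and topoisomerase genes and 3 cytokinesis genes. Each gene was read from the probe set, a group of short array probes against 1 transcript, that had the highest mean over the 6 arrays. Levels are log2 values as deposited, and differences are shTNC minus shControl.

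The mice were of the immunodeficient NSG strain, which lacks mature T, B and NK cells, were female and 6 to 8 weeks old, and had received MDA231-LM2 cells, a lung-metastatic subline of human MDA-MB-231 breast cancer cells, by intravenous injection. In the shControl group these cells carried a control hairpin RNA, and in the shTNC group a hairpin RNA against TNC, the gene of the extracellular matrix protein tenascin C. ECs were sorted on day 20 (3 weeks in the sample labels) as CD31+ cells after cells with CD45, CD11b, EpCAM, CD140a, CD140b or GFP had been excluded, and 1 array was run for each of 3 shControl and 3 shTNC samples, labelled as biological replicates. Every mouse carried metastases of a single cancer line, the knockdown lay in the human cells that the sort removed and so cannot be checked with a mouse probe set, and the number of mice behind each sample is not given in the sources used here. All 10 pan-endothelial markers, such as the adhesion proteins Pecam1 and Cdh5, were above background, as were 73.9% of all genes. All 7 epithelial and all 6 fibroblast markers were also above background, so this does not measure the purity of the sort.

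A dividing cell condenses its chromosomes, builds a kinetochore on each centromere and attaches it to spindle microtubules. A checkpoint holds back the anaphase-promoting complex until attachment is complete, and the cell is then cut at the spindle midzone. The genes of this machinery are transcribed mainly in G2 and M phase, so that a tissue sample with more dividing cells usually contains more of their RNA. ECs of the healthy adult lung rarely divide. Many of these genes share promoter elements, the cell cycle genes homology region (CHR) and the CCAAT box, which are known for repression in resting cells by the DREAM complex and for activation by NF-Y.

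The promoters of the members that the results turn on are shown because many genes of this kind share these letters. The letters go with the role by which the genes were chosen and are not a result of these arrays. The RefSeq table (GRCm38.p6) had 46 promoters of 300 bases for 42 of the 49 genes. CHR letters (TTTGAA or TTTAAA on either strand) were found in 33 of the 46 (71.7%), against 27.6% of all 32851 promoters of the table. CCAAT on either strand was found in 34 (73.9%), against 37.4% of all, and both were found in 27 (58.7%), against 10.7% of all. Among the 21262 protein-coding promoters the corresponding shares were 25%, 38.2% and 9.95%. A match is a description of letters and not a bound site. For each role group, the gene with the smallest limma p among those with 1 start in the table is printed from 120 bases before to 50 after the transcription start, 5′ to 3′ on the gene's own strand, with the CHR letters and CCAAT in capitals, the latter as ATTGG where it lies on the other strand. The windows are chr19:37376262-37376431 (plus strand) for Kif11, chr5:123749606-123749775 (plus strand) for Kntc1, chr2:118598091-118598260 (plus strand) for Bub1b, chr4:124936868-124937037 (minus strand) for Cdca8, chr8:22185770-22185939 (minus strand) for Ckap2, chr5:45669805-45669974 (plus strand) for Ncapg and chr9:22389157-22389326 (minus strand) for Anln.
Kif11: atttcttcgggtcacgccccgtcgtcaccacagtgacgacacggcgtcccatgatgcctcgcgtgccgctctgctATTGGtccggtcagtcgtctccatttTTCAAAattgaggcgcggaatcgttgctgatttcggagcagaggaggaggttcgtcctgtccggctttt
Kntc1: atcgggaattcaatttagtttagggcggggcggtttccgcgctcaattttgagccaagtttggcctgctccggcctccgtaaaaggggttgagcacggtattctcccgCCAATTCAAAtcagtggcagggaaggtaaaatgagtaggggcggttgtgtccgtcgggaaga
Bub1b: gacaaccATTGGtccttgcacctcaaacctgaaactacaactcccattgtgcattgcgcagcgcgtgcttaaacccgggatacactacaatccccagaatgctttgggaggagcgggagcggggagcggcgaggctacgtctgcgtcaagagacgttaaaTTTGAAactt
Cdca8: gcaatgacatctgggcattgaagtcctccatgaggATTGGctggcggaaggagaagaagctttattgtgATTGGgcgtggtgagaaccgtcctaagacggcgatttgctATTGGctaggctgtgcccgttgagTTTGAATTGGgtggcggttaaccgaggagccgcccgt
Ckap2: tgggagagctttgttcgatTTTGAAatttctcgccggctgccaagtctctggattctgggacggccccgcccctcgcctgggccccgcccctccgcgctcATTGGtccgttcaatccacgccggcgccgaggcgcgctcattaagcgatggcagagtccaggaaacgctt
Ncapg: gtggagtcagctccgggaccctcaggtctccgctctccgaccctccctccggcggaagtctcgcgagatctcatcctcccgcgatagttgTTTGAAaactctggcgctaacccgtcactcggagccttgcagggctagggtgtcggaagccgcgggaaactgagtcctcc
Anln: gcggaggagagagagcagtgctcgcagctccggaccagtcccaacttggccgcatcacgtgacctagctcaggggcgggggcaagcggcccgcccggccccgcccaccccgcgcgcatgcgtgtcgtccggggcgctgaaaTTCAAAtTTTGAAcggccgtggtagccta

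Kif11 and Ckap2 hold CCAAT, read from the other strand, at positions -45 and -20 from the start, and their CHR letters begin at -19 and -101. In Kntc1 the motifs overlap, with CCAAT at -12 running into TTCAAA at -8. Cdca8 has 4 matches to CCAAT, at -85, -51, -11 and 19, the last of which shares a base with its CHR letters at 14. Bub1b has its CHR letters at 41, after the start. Ncapg and Anln show CHR letters but no CCAAT in the printed window. Among the promoters in the table, the starts of Nuf2, Kif18a, Nusap1, Ncaph, Mad2l1 and Pttg1 held neither motif in the 300 bases.

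All 49 genes had a lower mean in shTNC than in shControl ECs, where 58.3% of all genes were lower. The median difference was -0.51, which is a 1.43-fold higher level in shControl, against a median of -0.03 over all genes, and single genes ranged from -0.87 to -0.08 with quartiles of -0.64 and -0.34. At an unadjusted p under 0.05 in limma, 37 of the 49 were lower and 0 were higher, where 7.12% of all genes were lower by the same measure. The groups did not overlap for 30 of the 49, against 12.4% of all genes. No member passed an adjusted p of 0.05 over the 45101 probe sets, nor did any other gene (0% of all), and the members' adjusted p lay between 0.18 and 0.80. At the study's looser thresholds (a difference beyond 0.75 in size, with p under 0.05 before and under 0.25 after adjustment), 3 members passed, Cenpe, Cdca8 and Ckap2, against 0.0715% of all genes in this direction. In bulk samples such as these, fewer dividing cells and less of this RNA in each cell cannot be told apart. The study reports that TNC knockdown reduced lung colonization, and that lungs with more cancer cells had more ECs. The metastatic burden behind each sample is not given in the sources used here, so burden and knockdown cannot be told apart either. The genes are not replicates of the condition, since all were read on the same 6 arrays.

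**Figure D1:**
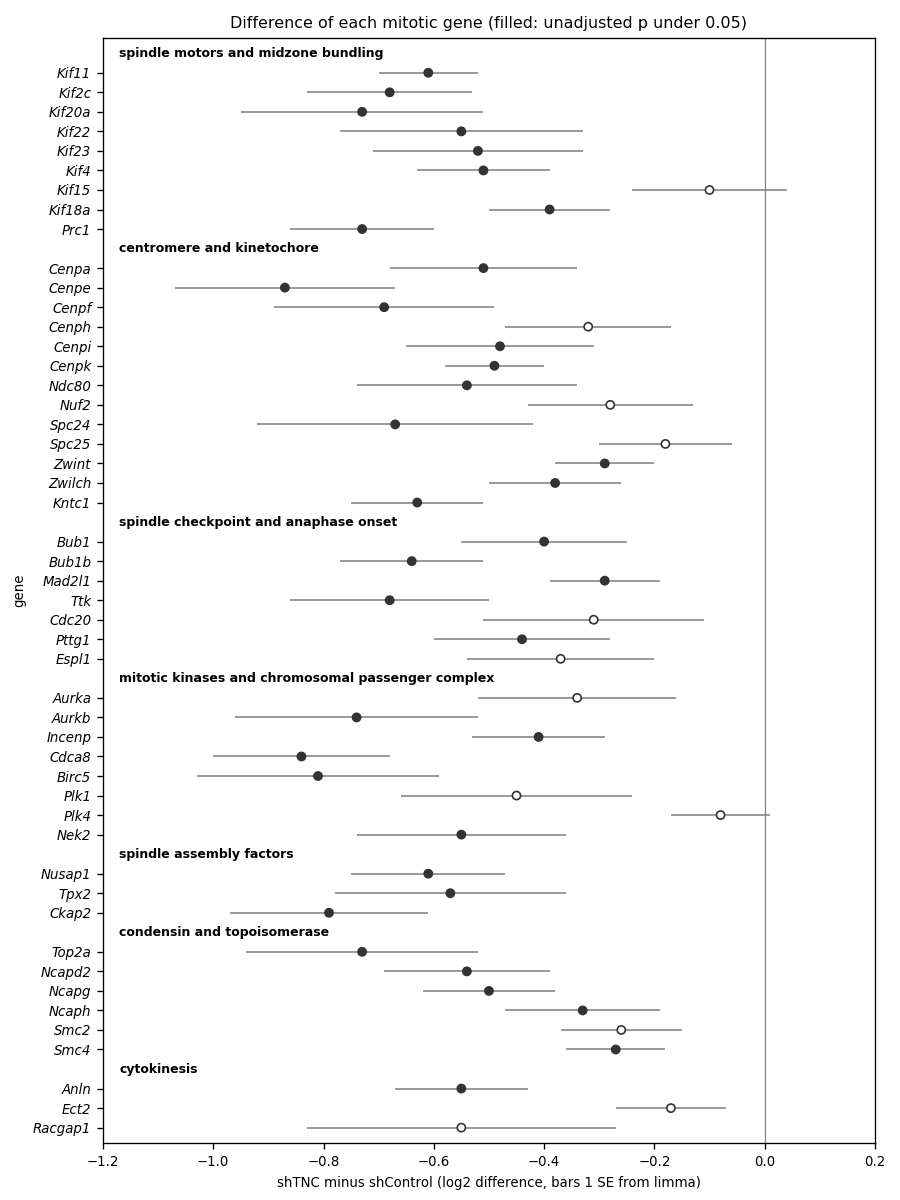
Difference (shTNC minus shControl, log2 scale, x axis) of each of the 49 genes (y axis, by role), with bars of 1 SE from limma over 3 and 3 arrays. All points lie left of 0, from -0.87 for Cenpe to -0.08 for Plk4, and the 37 filled points have an unadjusted p under 0.05.

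The spindle motors are kinesins that slide microtubules apart, move chromosomes or take microtubules down, and Prc1 bundles the antiparallel microtubules of the midzone. All 9 genes of the group were lower in shTNC (median -0.55), 8 of them at an unadjusted p under 0.05, and the groups did not overlap for 6. Kif11 (probe set 1452314_at), the kinesin that pushes the spindle poles apart, had levels of 9.60, 9.72 and 9.65 in shControl and of 9.05, 8.96 and 9.14 in shTNC. Its difference of -0.61 ± 0.09 (SE, n = 3 and 3, limma adjusted p = 0.18) exceeded the spread within either group. Prc1 (probe set 1423775_s_at) read 10.80, 11.25 and 11.12 in shControl and 10.28, 10.46 and 10.24 in shTNC (-0.73 ± 0.13, adjusted p = 0.18). Kif2c (probe set 1437611_x_at), which removes tubulin from microtubule ends at the centromere, read 8.96, 9.50 and 9.31 against 8.51, 8.76 and 8.44 (-0.68 ± 0.15, adjusted p = 0.21). For both genes the first shControl array was the lowest of its group and still above all shTNC arrays. Kif15 (probe set 1431718_at), which helps to keep the spindle bipolar, was the exception, with 6.78, 7.31 and 6.90 in shControl and 6.96, 6.84 and 6.89 in shTNC. Its groups overlapped, its mean was near background and its difference of -0.10 ± 0.14 (adjusted p = 0.80) had a 95% interval of -0.42 to 0.22. The other motors were Kif20a (-0.73), Kif22 (-0.55), Kif23 (-0.52), Kif4 (-0.51) and Kif18a (-0.39), and the groups overlapped for Kif20a and Kif23.

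The centromere group holds the histone variant Cenpa, which marks the centromere, the inner proteins Cenph, Cenpi and Cenpk that sit on it, the outer Ndc80 complex (Ndc80, Nuf2, Spc24 and Spc25) that grips the microtubule, and Zwint, Zwilch and Kntc1, which bring checkpoint proteins and dynein to the kinetochore. All 13 genes were lower in shTNC (median -0.49), 10 of them at an unadjusted p under 0.05, with no overlap of the groups for 8. Cenpe (probe set 1435005_at), a kinetochore motor that carries chromosomes to the spindle equator, showed the largest difference of the 49 genes. Its levels were 8.90, 9.79 and 9.44 in shControl and 8.41, 8.61 and 8.50 in shTNC (-0.87 ± 0.20, adjusted p = 0.22), and the second shControl array stood highest. Cenpk (probe set 1418264_at) was more even, with 8.41, 8.45 and 8.46 against 7.80, 8.02 and 8.02 (-0.49 ± 0.09, adjusted p = 0.18). Kntc1 (probe set 1435575_at) read 9.12, 9.25 and 8.85 against 8.35, 8.43 and 8.54 (-0.63 ± 0.12, adjusted p = 0.18). For all 3 genes each shControl array was above each shTNC array.

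The differences of the 4 subunits of the Ndc80 complex ranged from -0.67 to -0.18, with 95% intervals that overlapped. Spc24 differed by -0.67 ± 0.25 and Ndc80 by -0.54 ± 0.20, while Nuf2 (-0.28 ± 0.15) and Spc25 did not reach an unadjusted p of 0.05. Spc25 (probe set 1424118_a_at) read 9.52, 9.91 and 9.61 in shControl and 9.48, 9.47 and 9.55 in shTNC, with groups that overlapped (-0.18 ± 0.12, adjusted p = 0.53). Differences between subunits were not tested. Cenpa (probe set 1450842_a_at) read 9.98, 10.63 and 10.33 against 9.79, 10.01 and 9.63 (-0.51 ± 0.17, adjusted p = 0.30), with the second shTNC array above the first shControl array. Another Cenpa probe set above background (1444416_at) gave 0.05 ± 0.16, but at a low mean of 7.73. A difference can be compressed at such a level, so this set does not settle the direction for Cenpa. Zwint (probe set 1423724_at) read 11.64, 11.80 and 11.69 against 11.45, 11.37 and 11.44, and its small difference of -0.29 ± 0.09 (adjusted p = 0.27) was without overlap. Of its 6 other probe sets, 4 were lower, 3 of them above background (-0.20 to -0.29), and 2 above background were higher (0.24 ± 0.14 and 0.09 ± 0.12). The remaining genes were Cenpf (-0.69), Cenpi (-0.48), Zwilch (-0.38) and Cenph (-0.32).

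The spindle checkpoint kinase Ttk and the proteins Bub1, Bub1b and Mad2l1 restrain Cdc20, the activator of the anaphase-promoting complex, and after release the securin Pttg1 is degraded and the separase Espl1 opens the cohesin rings. All 7 genes were lower in shTNC (median -0.40), 5 at an unadjusted p under 0.05, and the groups were apart for 3. Bub1b (probe set 1416961_at) read 9.82, 10.20 and 9.82 in shControl and 9.23, 9.45 and 9.26 in shTNC (-0.64 ± 0.13, adjusted p = 0.20). Ttk (probe set 1449171_at) read 9.13, 9.67 and 9.38 against 9.07, 8.53 and 8.56 (-0.68 ± 0.18, adjusted p = 0.25), where the first shTNC array lay just under the lowest shControl array. Mad2l1 (probe set 1422460_at) read 9.98, 10.18 and 9.94 against 9.81, 9.70 and 9.73 (-0.29 ± 0.10, adjusted p = 0.30). These were the 3 genes without overlap. Cdc20 (probe set 1416664_at), which read 10.55, 11.42 and 11.07 against 10.62, 10.74 and 10.75 (-0.31 ± 0.20, adjusted p = 0.54), had its lowest level of the 6 arrays in the first shControl sample. Its other probe sets gave -0.59 ± 0.18 and -0.39 ± 0.20. Pttg1 (-0.44), Bub1 (-0.40) and Espl1 (-0.37) had overlapping groups.

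Aurkb is the kinase of the chromosomal passenger complex, which corrects faulty attachments and later starts cytokinesis, and Incenp, Cdca8 (borealin) and Birc5 (survivin) are its partners. These 4 genes were all lower at an unadjusted p under 0.05 without overlap of the groups. Cdca8 (probe set 1436847_s_at) read 11.04, 11.68 and 11.17 in shControl and 10.49, 10.40 and 10.50 in shTNC (-0.84 ± 0.16, adjusted p = 0.18). Birc5 (probe set 1424278_a_at) read 9.99, 11.00 and 10.34 against 9.59, 9.70 and 9.61 (-0.81 ± 0.22, adjusted p = 0.25). Aurkb (probe set 1424128_x_at) read 9.27, 10.23 and 9.64 against 9.15, 8.94 and 8.84 (-0.74 ± 0.22, adjusted p = 0.27). In Birc5 and Aurkb the shControl arrays spread widely, from the first, near the shTNC values, to the second. Incenp differed by -0.41 ± 0.12. Of the other kinases, Nek2, which separates the centrosomes, differed by -0.55 ± 0.19 without overlap, whereas the spindle kinases Plk1 (-0.45 ± 0.21) and Aurka (-0.34 ± 0.18) had overlapping groups and did not reach an unadjusted p of 0.05. Plk4 (probe set 1419838_s_at), the kinase that starts centriole duplication and acts before mitosis, had the smallest difference of the 49. It read 9.83, 9.95 and 9.96 in shControl and 9.78, 9.88 and 9.84 in shTNC (-0.08 ± 0.09, 95% interval -0.28 to 0.12, adjusted p = 0.72), and its other probe sets gave -0.30 ± 0.12 and -0.01 ± 0.10.

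The spindle assembly factors stabilise microtubules near the chromosomes and poles. Ckap2 (probe set 1434748_at), a microtubule-binding protein of the spindle poles, read 9.80, 10.45 and 10.08 in shControl and 9.06, 9.52 and 9.37 in shTNC (-0.79 ± 0.18, adjusted p = 0.215), without overlap. Tpx2 (probe set 1428104_at), which activates Aurka on the spindle, read 9.62, 10.58 and 10.12 against 9.46, 9.63 and 9.52 (-0.57 ± 0.21, adjusted p = 0.33). Here the first shControl array reached down among the shTNC arrays. Nusap1, which links microtubules to chromosomes, differed by -0.61 ± 0.14, and all 3 genes were lower at an unadjusted p under 0.05.

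Condensin folds the mitotic chromosome and Top2a untangles its DNA. All 6 genes were lower in shTNC (median -0.42), 5 at an unadjusted p under 0.05. Ncapg (probe set 1429171_a_at), a condensin subunit, read 9.95, 10.26 and 9.86 in shControl and 9.41, 9.61 and 9.54 in shTNC (-0.50 ± 0.12, adjusted p = 0.23). Ncapd2 (probe set 1423847_at), another subunit, read 9.85, 10.41 and 9.94 against 9.52, 9.47 and 9.57 (-0.54 ± 0.15, adjusted p = 0.25). Top2a (probe set 1454694_a_at) read 10.39, 11.32 and 10.81 against 9.97, 10.14 and 10.21 (-0.73 ± 0.21, adjusted p = 0.26). In each the second shControl array was the highest and the groups were apart. Its other probe sets above background gave -0.25 ± 0.14 and -0.05 ± 0.14, but at low means of 7.49 and 7.81. The brightest set had group means of 10.84 and 10.11. A difference can be compressed at such low levels, so these 2 sets do not settle the size for Top2a. Smc2 (probe set 1448635_at), an ATPase of the condensin core, showed another order of arrays, with 10.58, 10.29 and 10.27 in shControl and 10.05, 10.26 and 10.06 in shTNC. It was the only member of the 49 with its highest level in the first shControl sample, and its groups were separate by a small margin (-0.26 ± 0.11, adjusted p = 0.39). Its partner Smc4 differed by -0.27 ± 0.09, with other probe sets at -0.05 ± 0.13 and -0.67 ± 0.12, and Ncaph by -0.33 ± 0.14 with overlapping groups.

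Anln links actin and myosin in the contractile ring, and Ect2 and Racgap1 switch on RhoA at the midzone to build it. Anln (probe set 1433543_at) read 10.07, 10.50 and 10.32 in shControl and 9.72, 9.75 and 9.76 in shTNC (-0.55 ± 0.12, adjusted p = 0.20), without overlap. Racgap1 (probe set 1451358_a_at) had the same mean difference with less precision (-0.55 ± 0.28, adjusted p = 0.44), since it read 9.37, 10.64 and 10.01 in shControl and 9.64, 9.36 and 9.37 in shTNC. Another Racgap1 probe set above background gave -0.59 ± 0.16 (adjusted p = 0.25), with 9.55, 10.24 and 9.80 against 9.27, 9.33 and 9.21 and no overlap. Ect2 (probe set 1419513_a_at) read 8.32, 8.50 and 8.59 against 8.39, 8.25 and 8.27 (-0.17 ± 0.10, adjusted p = 0.51). For Ect2 and the brightest Racgap1 probe set the first shControl array fell within the range of the shTNC arrays.

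**Figure D2:**
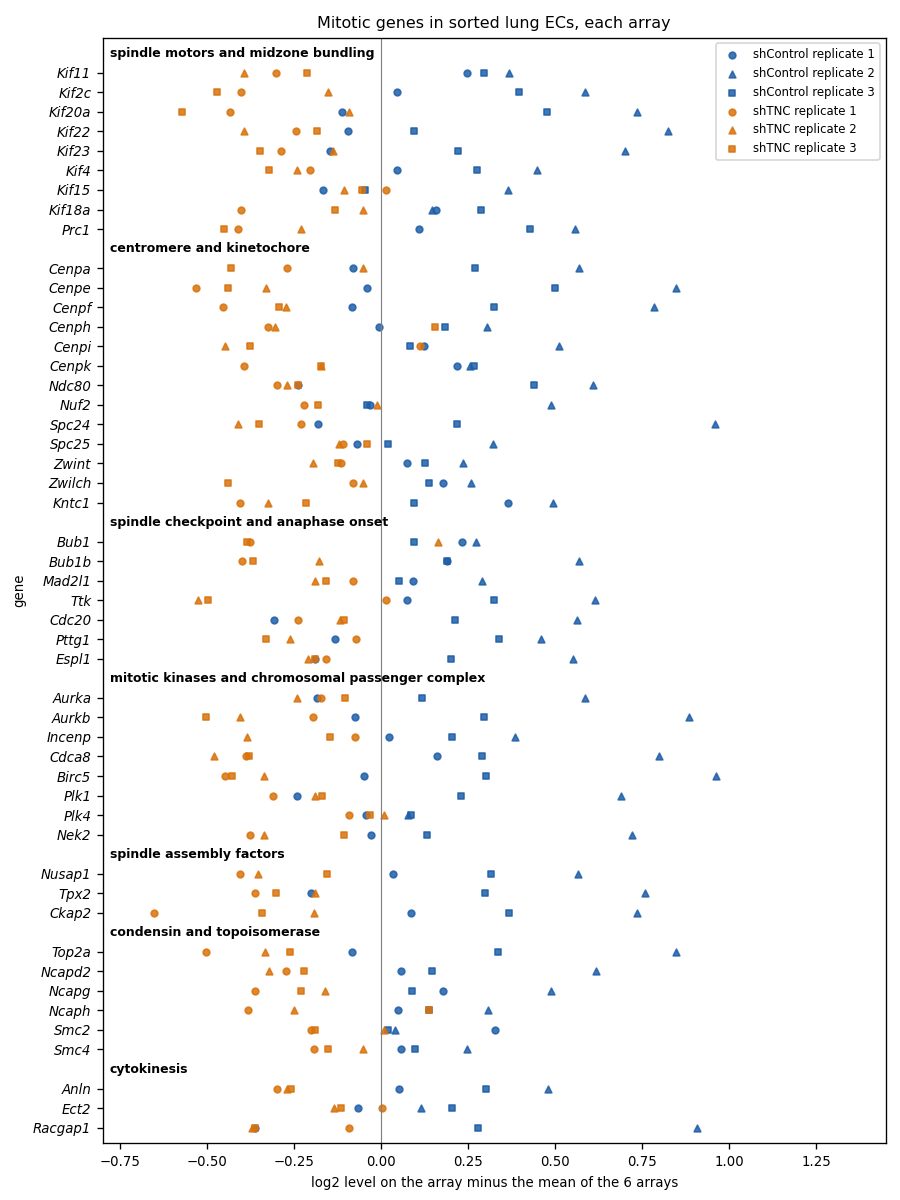
Level of each gene (y axis, by role) on each of the 6 arrays as log2 level minus the gene's mean over the arrays (x axis), with shControl in blue, shTNC in orange and replicates by symbol. The triangles of shControl replicate 2 are the highest point in 44 of 49 genes, and shControl replicate 1 is the lowest shControl point in 40.

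The shControl samples differed from each other more than the shTNC samples did. The highest level was found on shControl replicate 2 for 44 genes, on replicate 3 for 4 and on replicate 1 for 1. Relative to the mean of the 6 arrays, the median of the 49 genes was -0.00, 0.56 and 0.22 on the shControl arrays and -0.29, -0.23 and -0.23 on the shTNC arrays, while the median over all genes stayed between -0.02 and 0.04. Every member was higher on shControl replicate 2 than on any shTNC array, 45 were so on replicate 3, and 32 on replicate 1. The median SD of the members was 0.272 in shControl and 0.109 in shTNC, with a larger SD in shControl for 40 of 49 (81.6%), against 65.3% of all genes.

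Replicate 2 of shControl also stood apart over the whole array, with a first principal component score of -43.6 against -11.1 to 21.1 on the other 5 arrays, and it had the lowest array weight in limma (0.523 against 0.744 to 1.55). Without it, 48 of the 49 genes were lower and the median was -0.35. In that fit 30 were lower at an unadjusted p under 0.05 (5.26% of all genes), 30 had groups without overlap (16.7%) and 0 passed the study's thresholds (0%). Without shControl replicate 1 the median was -0.64, and the corresponding counts were 42 (6.7% of all genes), 45 (19.4%) and 14 (0.231%). The intensity difference between 3' and 5' control probes of Actb, a measure of RNA quality, was 0.28 to 0.29 in shControl and 0.20 to 0.27 in shTNC. That of Gapdh was 0.56 to 0.57 in shControl and 0.50 to 0.58 in shTNC, where the groups overlapped. The part of RNA quality in the results was not tested.

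Other probe sets of the same genes give a further reading of the same RNA samples. There were 64 of them for 33 members, and 16 members had a single probe set. Of the 43 above background, 40 were lower in shTNC, 26 of them at an unadjusted p under 0.05, with a median of -0.38, and the 3 that were higher belonged to Zwint and Cenpa. Sizes varied between probe sets of a gene. Smaller differences than on the brightest probe set were found, among others, for Kif11 (-0.33 ± 0.10), Kif2c (-0.44 ± 0.20), Kif22 (-0.16 ± 0.09), Ttk (-0.34 ± 0.17), Cdca8 (-0.52 ± 0.16), Nek2 (-0.33 ± 0.08) and Ncapd2 (-0.13 ± 0.16). Greater ones were found, among others, for Prc1 (-0.90 ± 0.14), Smc2 (-0.57 ± 0.10), Kif23 (-0.61 ± 0.17), Cenpf (-0.74 ± 0.21) and a further probe set of Kif2c (-0.70 ± 0.17). The smaller ones of Kif11, Ttk, Nek2 and Ncapd2 were read at low means (7.94, 7.81, 7.65 and 7.57), where a difference can be compressed. Those of Kif22 and Cdca8 were read at means of 9.18 and 9.41, and the greater one of Kif2c at 7.95. Of the 21 near background, 11 were lower and 10 higher, 1 was lower at an unadjusted p under 0.05, and the median was -0.0014.

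**Figure D3:**
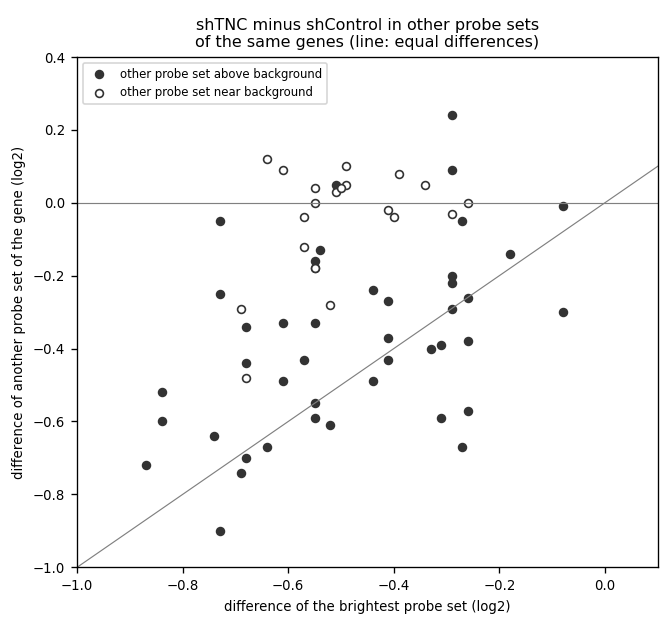
Difference (shTNC minus shControl, log2) of each other probe set of a member (y axis) against that of the member's brightest probe set (x axis), with the line of equal differences. Of the 43 filled points (above background) 40 lie under 0, while the 21 open points (near background) scatter around 0.

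Further genes of cell division were read from lists that were compiled from general knowledge, with earlier results of these data known. Of 30 other mitosis genes, such as the proliferation marker Mki67, 28 were lower in shTNC and 2 higher, with a median of -0.46. At an unadjusted p under 0.05, 18 were lower and 0 were higher. Over all genes 58.3% were lower, and at this level of p 7.12% were lower and 4.54% higher. Mki67 differed by -0.64 ± 0.13 (adjusted p = 0.20) and the mitotic kinase gene Pbk by -0.65 ± 0.13 (adjusted p = 0.20), while Bora, an activator of Aurka, was at 0.19 ± 0.09. Of 28 other centromere, kinetochore and condensin genes, 24 were lower and 4 higher, and the median was -0.14. At the same level of p, 9 were lower and 0 were higher. The 9 included the kinetochore scaffold gene Knl1 (-0.70 ± 0.18), the condensin gene Ncapg2 (-0.51 ± 0.11) and the centromere gene Cenpp (-0.41 ± 0.08, adjusted p = 0.18), and the genes near 0 included the checkpoint genes Bub3 (-0.07 ± 0.08) and Mad1l1 (-0.10 ± 0.13) and the centromere genes Cenpb (0.11 ± 0.10) and Cenpc1 (0.06 ± 0.09). Of 15 cohesin and gamma-tubulin genes, whose proteins hold sister chromatids together or nucleate microtubules and are also used outside mitosis, 10 were lower and 5 higher, 0 passed an unadjusted p of 0.05 in either direction, and the median was -0.015. No gene of the 3 lists passed a limma adjusted p of 0.05, and differences between lists were not tested.

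**Figure D4:**
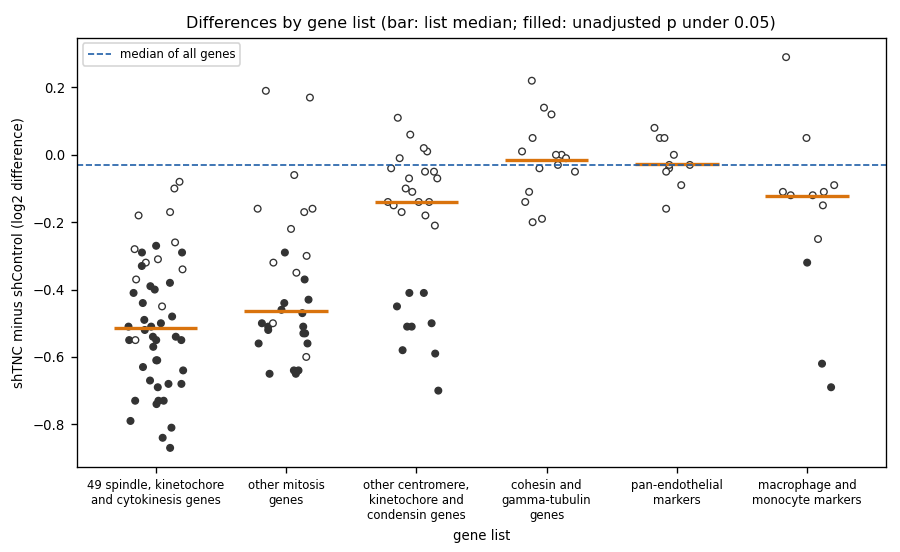
Difference (shTNC minus shControl, log2, y axis) of each gene in the 49 members, 3 further lists of cell division genes and 2 lists of cell type markers (x axis), with a bar at the list median and a dashed line at the median of all genes. The bars lie at -0.51 for the members, -0.46, -0.14 and -0.015 for the further lists, -0.027 for pan-endothelial and -0.12 for macrophage markers.

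Markers of ECs and of other cells were read on the same arrays. Of the 10 pan-endothelial markers 0 passed an unadjusted p of 0.05, with Pecam1 at -0.03 ± 0.08 and Cdh5 at -0.04 ± 0.08, and their summed linear level was 117000 to 123200 in shControl and 117900 to 120300 in shTNC. Of 12 measured macrophage and monocyte markers, 3 were lower at that level, as were 7.12% of all genes, and 0 were higher. The 3 were the mannose receptor Mrc1 (-0.62 ± 0.14), the secreted lectin Chil3 (-0.69 ± 0.21) and the endotoxin co-receptor Cd14 (-0.32 ± 0.10). The other 9 did not pass it and ranged from -0.25 ± 0.17 for Itgam to 0.29 ± 0.31 for C1qb. With no threshold, 10 of the 12 were lower and 2 higher. The summed level of all 12 was 10670 to 11410 in shControl and 7905 to 11020 in shTNC. Of the 12, Adgre1 and Itgam were near background and the other 10 were above it. Higher at an unadjusted p under 0.05, as were 4.54% of all genes, were 2 of 6 pericyte and smooth muscle markers (summed level 3137 to 3466 in shControl and 3554 to 4447 in shTNC), 1 of 2 measured erythroid markers (417.8 to 544.4 and 588.6 to 620.2) and 1 of 4 pan-leukocyte markers (1199 to 1446 and 1186 to 1776). Neutrophil, lymphocyte, epithelial, fibroblast and platelet markers had 0 genes past that level in either direction. The part of these cells in the values of the mitotic genes was not tested.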

How the data were processed

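Total RNA (2 ng a sample) of sorted lung ECs was hybridised to Affymetrix GeneChip Mouse Genome 430 2.0 arrays, 3 shControl and 3 shTNC. The deposited log2 values were normalised by the authors with RMA in Chipster 3.8.0, per the study's methods. Raw array files were not used here, so the summary step was not checked, and the number of arrays limits the precision. All 45101 probe sets were fitted by limma 3.58.1 under R 4.3.3 (lmFit, then eBayes; two-sided; Benjamini-Hochberg adjustment) without a replicate block, and the steps were tested on simulated data. Symbols came from GEO's platform annotation, where 34958 probe sets have 1 symbol, 932 have several and the others none. Near background means a mean under 7.48, below which 95 percent of 44 olfactory receptor probe sets lie.

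Values on every array are given, for each role group, for the genes with the smallest p (3 in groups of 6 or more, otherwise 1), for the gene with the largest p and for genes with an opposed probe set above background. Racgap1 was added after its values were seen. The members, lists and rules were chosen with earlier results of these data known. Alternatives were quantile or median normalization, a filter on low values, another variance model, array weights, other probe set choices, a replicate block and leaving out each array.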

Additional observations from a re-analysis of the deposited data

How the results depend on the processing

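The median of the 49 genes stayed between -0.64 and -0.35 under all alternatives, 0 of them passed an adjusted p of 0.05 with limma (smallest value 0.0585, with an intensity trend and robust eBayes), and at an unadjusted p under 0.05 between 29 and 42 were lower and 0 were higher. Array weights left 1 gene past the study's thresholds in place of 3, and leaving out single arrays gave 0 to 14, with 0 without shControl replicate 2 or any shTNC array and 14 without shControl replicate 1. Of single genes, Cenpa was at 0.05 when only probe sets without an _s, _x or _a suffix, which marks probes shared by several transcripts, were read (40 genes), and Kif15, which ranged from -0.21 to 0.06 when single arrays were left out, at 0.06 without shControl replicate 2, and the cause was not tested.

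Over all probe sets, the deviations of same-numbered samples were little correlated (-0.09, 0.04 and 0.10). With 3 arrays a group this cannot settle whether same-numbered samples share more than a number. With the replicate block, 41 genes were lower at an unadjusted p under 0.05 in place of 37, the median was -0.51, 3 passed the study's thresholds, and 8 in place of 13 had an adjusted p under 0.25. With 3 arrays a group, differences as small as those of Plk4 or Kif15 were not detectable, and 3' arrays do not tell transcript variants apart.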
